A study of Mus musculus with 8 samples.

Results

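The iBmp2 fx/fx cells were an immortalized line of mouse dental papilla cells that carried floxed Bmp2 alleles, and their transcriptome was followed over the time in culture. Their 4 libraries of total RNA, 1 each at 6, 24, 48 and 72 h, were 4 of the 8 libraries of the study and were chosen by genotype and culture time from the labels. The other 4 came from the iBmp2 ko/ko cells, a line of the same kind with the Bmp2 deletion, at the same times. Both lines were grown in dishes to 80% confluence and collected after the stated time. The times of 6, 48 and 72 h are named in the culture methods without 24 h, and the design text of the series gives 8 h in place of 6 h. With 1 library per genotype and time, no spread between cultures could be measured, and the differences within the iBmp2 fx/fx cells are given as a description with no p-value. The sources used here do not say how many clones the line held or whether all times came from the same passage.

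The dental papilla is the mesenchyme beneath the enamel-forming epithelium of the tooth germ, and it gives rise to the dentin-forming odontoblasts and to the pulp. Cultured mesenchymal cells adjust a few large gene programs to the state of the culture. Ribosomes are assembled in the nucleolus of growing cells, sterols are made by enzymes under the control of the SREBP factors, lysosomes break down proteins and lipids, and the interferon-stimulated genes form an antiviral program.

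Between 28322485 and 32415665 reads per iBmp2 fx/fx library were counted on genes, so that 1 read was worth 0.0310 to 0.0357 CPM (reads scaled to the library size by the TMM method). A level under 3 reads, between 0.0930 and 0.107 CPM, was taken as not detectable, and this floor covers counting error only. Of 22609 gene symbols, 12014 had a mean of at least 1 CPM over these 4 libraries and entered the counts below. Alignments of reads with several positions in the genome made up 41.3% to 45.6% of all alignments, with the highest share at 72 h, and they were not counted. Genes with near-identical copies are undercounted in such a table. Amd1 and Mia3, which most cells express, were among the symbols with 0 reads in all 4 libraries. A 0 may thus also be a loss in counting, which was not tested. Gapdh, a glycolytic enzyme that most cells express strongly, had only 2.06, 3.28, 3.07 and 4.95 CPM. Bmp2 itself had 1 read at 24 h and 0 reads at 6, 48 and 72 h, so its transcript was not detectable at this depth.

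1 library of the comparison line stood apart from its label. The library labelled iBmp2 ko/ko at 24 h differed 2-fold from the iBmp2 fx/fx library of 6 h for only 11 of 12014 genes (0.0916%), with an SD of 0.0989 on the log2 scale from the median absolute deviation and a Pearson correlation across genes of 0.998. The next closest pair among the 8 libraries, iBmp2 fx/fx at 24 and 48 h, differed for 237 genes (1.97%). The iBmp2 ko/ko library of 6 h differed from the library labelled iBmp2 ko/ko at 24 h for 1317 genes. The 11 genes included the RNA component genes Rmrp and Rpph1 and the mitochondrial leucyl-tRNA synthetase gene Lars2. Why these libraries were alike was not tested, and the values of the iBmp2 ko/ko cells below are those of 6 and 72 h unless stated.

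The iBmp2 fx/fx cells expressed the genes of a mesenchymal line. Levels per kilobase of exon were ranked for the 11870 genes of known length, from uniquely aligned reads only. Genes with near-identical copies may thus rank too low. The highest level was that of S100a4, which encodes a calcium-binding protein of motile and mesenchymal cells. Its mean was 3648 RPKM (CPM per kilobase of exon) over the 4 libraries. Next came Lgals1, which encodes galectin-1, with 2920.3 RPKM, and the ribosomal protein gene Rpl8 with 2251 RPKM. The light chain of MHC class I, B2m, had 2186 RPKM and the calcium-binding S100a6 had 2019.8 RPKM. The other 10 of the 15 most abundant genes were Fth1, H1f0, Spp1, Ifitm3, Fn1, Sparc, Bgn, Eef2, Hsp90ab1 and Actb, so that secreted matrix proteins stood beside translation, iron storage and cytoskeletal genes. Of 18 genes of fibroblasts and mesenchyme, 15 passed the filter. Col1a1 and Col1a2, the chains of type I collagen, had means of 495 and 229.8 RPKM, fibronectin (Fn1) 879.6 RPKM and vimentin (Vim) 613 RPKM, whereas the proteoglycan gene Lum had 0, 0, 1 and 0 reads.

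Of 24 transcription factors of the dental mesenchyme, 16 passed the filter and 5 had no more than 3 reads in any of the 4 libraries. The homeobox genes Prrx2, Prrx1 and Dlx2 had means of 73.9, 33.5 and 15.9 RPKM, and the mesenchymal factor Twist1 had 55.5 RPKM. Msx1 and Msx2, homeobox genes that respond to BMP in the tooth germ, were found at lower levels of 3.46 and 1.34 RPKM, with 218, 154, 233 and 216 reads of Msx1 at 6, 24, 48 and 72 h. Pax9, a paired-box gene needed for tooth development, had 61, 67, 73 and 65 reads. In contrast, Barx1 (0, 0, 0 and 1 reads), Lhx8 (0, 0, 1 and 0 reads) and Dlx6 (0 reads in each library), which mark parts of the jaw and molar mesenchyme, were not detectable. Of the 16 factors, 1 (Dlx3, with 152, 24, 105 and 39 reads) was 2-fold lower at 72 than at 6 h and 0 of 16 were 2-fold higher, which is near the 8.38% and 5.71% of all genes. The median log2 difference of these factors from 6 to 72 h was 0.27.

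Markers of differentiated odontoblasts were unevenly present. Dspp, which encodes the main non-collagenous protein of dentin, had 0 reads in each library, as did Ibsp and Mepe, while 13 of 20 genes of mineralization passed the filter. Of these, 3 of 13 were 2-fold higher and 3 of 13 lower at 72 h, against 5.71% and 8.38% of all genes, and the median log2 difference of the list was 0.06. Spp1 (osteopontin) and Sparc (osteonectin) were among the most abundant transcripts, with 964 and 836 RPKM. Alpl (chr4:137297648-137352299, minus strand, mm9), the tissue non-specific alkaline phosphatase that frees phosphate for mineral, had 403, 1053, 1641 and 1887 reads at 6, 24, 48 and 72 h and was higher at each later time, by 2.33 on the log2 scale from 6 to 72 h. Sp7 (osterix), a factor of bone and dentin-forming cells, had 18, 9, 90 and 93 reads and was low at 6 and 24 h and higher at 48 and 72 h. Omd, which encodes osteomodulin, went the other way in order, with 202, 137, 136 and 87 reads.

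Genes of the dental epithelium, endothelium and blood were low or absent, whereas several smooth muscle genes and the tubulin gene Tubb3 were expressed. None of the 18 genes of the dental epithelium passed the filter (0 of 18), the summed level of the list was 2.03 to 3.84 CPM per library, and Shh, Amelx, Ambn, Enam and Odam had 0 reads in all 4 libraries. Of 10 endothelial genes 2 passed (Kdr and Vwf), with a summed level of 2.26 to 5.55 CPM, and Tie1, Emcn and Cldn5 were at 0. Of 13 genes of blood cells and macrophages 2 passed (Cd68 and Csf1r), with a summed level of 4.75 to 14.9 CPM that was highest at 48 h, and Emr1, Cd3e, Tyrobp and both globin genes of the list were at 0. Of 12 neural and glial genes 3 passed, with a summed level of 24.0 to 46.1 CPM, among them Tubb3 with 626, 691, 913 and 1282 reads, and Elavl4, Snap25 and Foxd3 were at 0. Of the smooth muscle list 7 of 12 passed, with a summed level of 834 to 1813 CPM, highest at 72 h. Acta2 had 304 RPKM and Tagln 145 RPKM, but the smooth muscle myosin Myh11 had 6, 3, 8 and 4 reads and its coactivator Myocd 1, 0, 0 and 0. Of 8 cartilage genes 3 passed, with a summed level of 37.1 to 52.3 CPM, among them Sox9 and Col2a1 with 8.57 and 0.405 RPKM. The adipocyte list had 4 of 8 genes past the filter, and its summed level was 52.1 to 87.4 CPM, highest at 48 h. In a bulk library, fewer cells of a type and less RNA per cell cannot be told apart. The part of other cells in the differences between times was not tested.

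**Figure D1:**
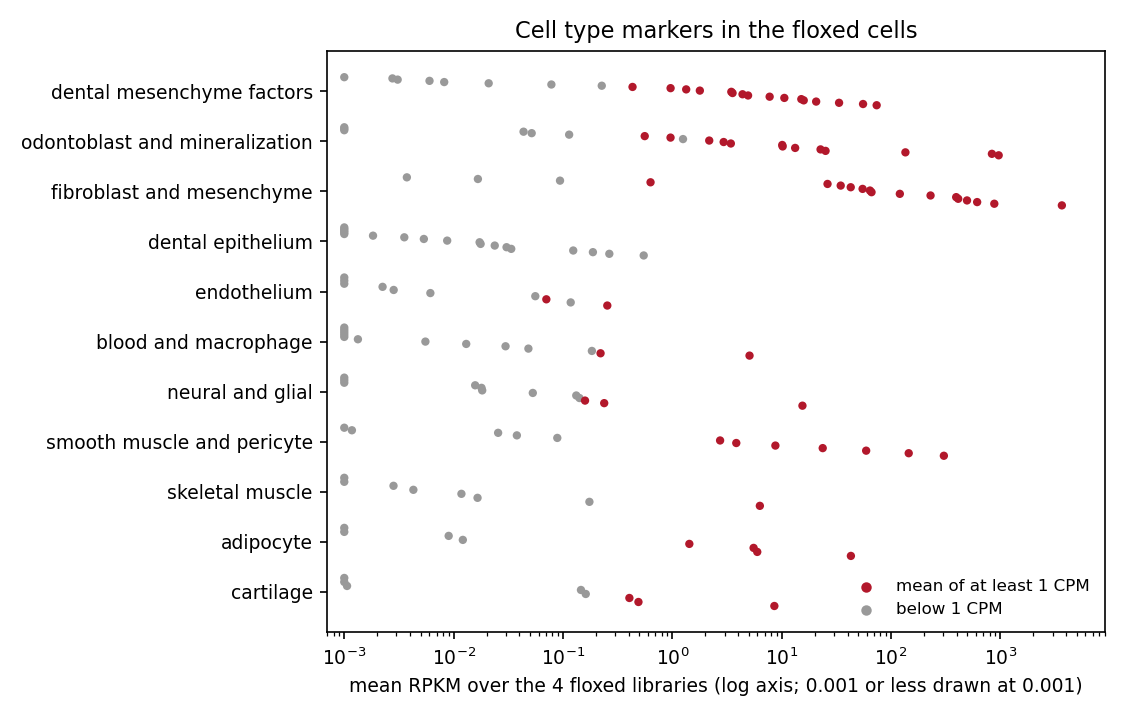
Mean level of each marker gene in the iBmp2 fx/fx cells, in RPKM on a log axis, grouped by the cell type the markers stand for. Each point is 1 gene averaged over the 4 libraries, red where its mean was at least 1 CPM. The fibroblast and mesenchyme genes reach 3648 RPKM (S100a4), whereas no gene of the dental epithelium passed the filter.

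From 6 to 72 h, 686 of 12014 genes (5.71%) were at least 2-fold higher and 1007 (8.38%) at least 2-fold lower in the iBmp2 fx/fx cells. The differences were uneven over time. From 6 to 24 h, 359 genes (2.99%) were 2-fold higher and 253 (2.11%) lower. From 24 to 48 h, the numbers were 151 (1.26%) and 86 (0.716%). From 48 to 72 h, 249 genes (2.07%) were higher and 777 (6.47%) lower, so that the last step had the most lower genes of the 3 steps. Of the 1007 genes lower at 72 h, 110 were already 2-fold lower at 48 h, and for 827 (82.1%) the last step held the larger part of the log2 change. Of the 686 genes higher at 72 h, 208 were already 2-fold higher at 48 h and 382 (55.7%) made the larger part of the change in the last step.

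**Figure D2:**
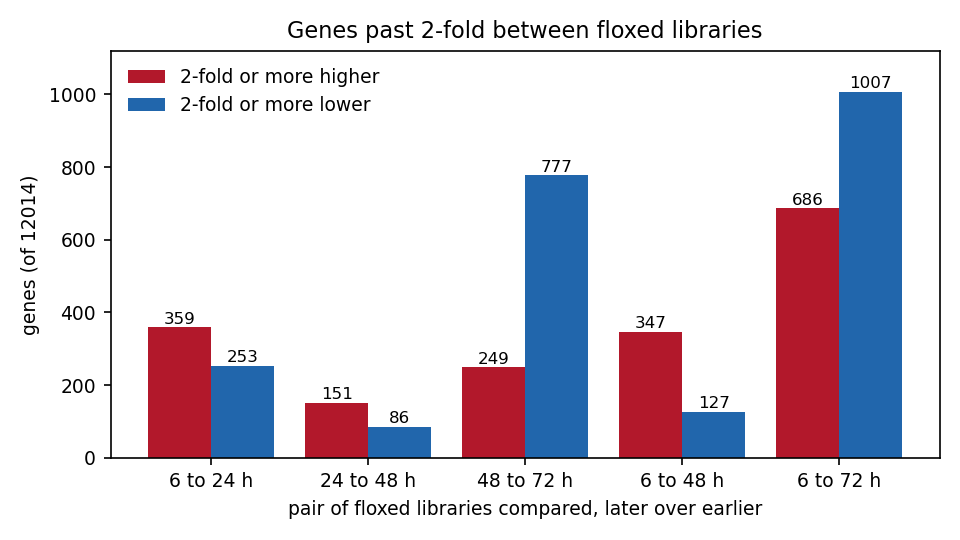
Number of genes at least 2-fold higher (red) or lower (blue) in the later of each pair of iBmp2 fx/fx libraries, of 12014 genes with a mean of at least 1 CPM. The last step, 48 to 72 h, has 777 lower genes, against 86 from 24 to 48 h.

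The library of 24 h did not lie between those of 6 and 48 h. Against 6 h, 612 genes were 2-fold apart at 24 h and 474 at 48 h, the latter with 347 genes (2.89%) higher and 127 (1.06%) lower. Against 72 h, 648 genes were 2-fold apart at 24 h and 1026 at 48 h. Of the genes past 2-fold from 6 to 72 h, 125 (1.04% of all genes) were higher and 152 (1.27%) lower at every later time. In the order 6, 48, 24 and 72 h, an order tried after the values were seen, 383 genes (3.19%) were higher and 574 (4.78%) lower at every step. Without the 24 h library, over 6, 48 and 72 h, 561 of the 686 genes and 826 of the 1007 were in order. The libraries of 24 and 48 h were the closest pair within the line. Whether their labels, the state of the dishes or handling moved with this order was not tested.

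These counts rest on the scaling and, less so, on base composition. Without TMM scaling, all genes shifted by a median of -0.12 on the log2 scale, and 517 genes were 2-fold higher and 1225 lower, so that a difference of that size has no firm sign here. Across 11870 genes with a known length, the GC content of the exons and the log2 difference from 6 to 72 h had a Spearman correlation of -0.27, a description across genes, which are not independent. The median log2 difference was 0.25 in the tenth of genes poorest in GC and -0.26 in the richest, and 0.06 and -0.09 from 6 to 48 h. After the median of each GC class was subtracted, 585 genes were 2-fold higher and 942 lower. The part of RNA quality or library preparation in this trend was not tested. Each of the 14 gene lists in the plot of list medians kept its sign without TMM and after the GC correction.

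The genes of ribosome assembly were at their highest at 72 h. All 25 genes of the nucleolus list passed the filter, and 21 of 25 were at least 2-fold higher at 72 h, against 5.71% of all genes, with a median log2 difference of 1.36 against 0.04 over all genes. Nucleolin (Ncl, chr1:88241294-88256030, minus strand, mm9), an abundant nucleolar protein that binds pre-ribosomal RNA, had 736, 1286, 905 and 2375 CPM at 6, 24, 48 and 72 h. Its level was high at 72 h, intermediate at 24 h and low at 6 and 48 h. Nop58, a core protein of the box C/D snoRNPs that methylate ribosomal RNA, had 115, 241, 171 and 466 CPM, a log2 difference of 2.02 with a counting interval of 1.97 to 2.07. Dkc1 (dyskerin), the pseudouridine synthase of the box H/ACA particles, had 57.9, 120.1, 82.6 and 227 CPM. The RNA helicase gene Ddx21 had 126, 265, 177 and 450.1 CPM. The RNA polymerase I subunits Polr1a, Polr1b and Polr1e differed by 1.10, 1.28 and 1.30 on the log2 scale. The same order, 72 above 24 above 48 above 6 h, was found for 22 of the 25 genes, and all 25 had their highest level at 72 h, against 38.6% of all genes. Myc, a transcription factor that drives ribosome synthesis, had 56.6, 165, 135 and 208 CPM and followed the same order. The smallest differences of the list were those of Bop1 (0.41) and Pes1 (0.64).

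Sterol synthesis genes were lowest at 72 h. Of 25 genes of cholesterol synthesis and uptake, 24 passed the filter, 18 of 24 were at least 2-fold lower at 72 than at 6 h, against 8.38% of all genes, and the median log2 difference was -1.61. Each of the 24 genes had its lowest level at 72 h, against 33.2% of all genes. Its median at 48 h was 0.06, and its median at 24 h was -0.58, with 23 of 24 genes below 6 h and all 24 below 48 h. Insig1 (chr5:28397952-28405201, plus strand, mm9), which holds the SREBP precursor in the endoplasmic reticulum and is itself an SREBP target, had 913, 523, 769.6 and 172 CPM at 6, 24, 48 and 72 h, a log2 difference of -2.41 with a counting interval of -2.45 to -2.37. Its level was high at 6 and 48 h, lower at 24 h and lowest at 72 h. Mvd, the decarboxylase of the mevalonate branch, had 382, 195, 375 and 91.5 CPM. Fdps, which makes farnesyl pyrophosphate, had 261, 151, 228 and 69.4 CPM. Lss and Dhcr7, a cyclase and a reductase of the later steps, differed by -1.98 and -1.92. Srebf2, which encodes the SREBP-2 factor, stayed within 2-fold at -0.77. Hmgcs1, an early enzyme of the pathway, was listed at 0 reads in all 8 libraries, and whether its reads were lost in the counting was not tested, so this 0 is not read as a level.

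The fatty acid list was also lowest at 72 h for 16 of its 19 genes, against 33.2% of all genes. Of 20 listed genes, 8 of the 19 that passed the filter were 2-fold lower at 72 h, against 8.38% of all genes, and the median was -0.93. With 1 of 19 genes 2-fold higher, the list was near the 5.71% of all genes. Fasn, fatty acid synthase, had 1236, 792, 1036 and 509.7 CPM at 6, 24, 48 and 72 h. The desaturase gene Scd2 had 2880.5, 2109, 2956 and 1475 CPM, with its lowest level at 72 h. Lpin1, a phosphatidate phosphatase, had the largest difference of the list with 138, 104, 164 and 37.9 CPM and a log2 difference of -1.86. The 3 others were Dgat2, an enzyme of triglyceride synthesis, which was higher at 72 h by 1.00, Acsl4, an acyl-CoA synthetase of polyunsaturated fatty acids, higher by 0.73, and the sterol exporter Abcg1, which differed by -0.77 and was lowest at 48 h.

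Lysosomal genes were lower at 72 h than at any other time. Of 25 genes 23 passed the filter, 15 of 23 were 2-fold lower at 72 h, against 8.38% of all genes, and the median log2 difference was -1.23. All 23 had their lowest level at 72 h, against 33.2% of all genes, and 21 had their highest at 6 h, against 29.9%. Gpnmb (chr6:48986517-49020928, plus strand, mm9), a membrane glycoprotein of lysosomes and melanosomes, had 503, 306, 498 and 61.6 CPM at 6, 24, 48 and 72 h, the largest difference of the list with -3.03. The sialidase gene Neu1 had 185, 56.8, 74.8 and 28.5 CPM and was lower at each of the later times than at 6 h. Cathepsin D (Ctsd), a protease of the lysosomal lumen, had 1645, 1147, 1634 and 626 CPM. The structural membrane protein gene Lamp1 had 1737, 1303, 1457 and 791 CPM. Hexa, which encodes a subunit of a lysosomal hexosaminidase, differed by -1.98. Mcoln1, the calcium channel of the lysosome, differed by -1.79 and the autophagy receptor Sqstm1 by -1.60, and Sqstm1 was lower at every later time.

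The interferon-stimulated genes were lower from 48 h on. All 30 genes of the list passed the filter, 23 of 30 were 2-fold lower at 72 than at 6 h, against 8.38% of all genes, and 17 of 30 already at 48 h, against 1.06%. The median log2 difference was 0.13 at 24 h, -1.14 at 48 h and -1.59 at 72 h. Each of the 30 was lower at 48 than at 24 h, and 27 of 30 had their lowest level at 72 h, against 33.2% of all genes. The highest level was at 24 h for 23 of 30, against 14.3% of all genes, and at 6 h for 7 of 30, against 29.9%. Rsad2 (viperin, chr12:27127618-27141317, minus strand, mm9), an enzyme that makes a chain-terminating nucleotide against viruses, had 775, 376, 162 and 36 reads at 6, 24, 48 and 72 h and was lower at every later time. Its log2 difference was -4.24 with a counting interval of -4.84 to -3.84. The neighbouring gene Cmpk2, a nucleotide kinase, had 426, 275, 108 and 32 reads, in the same order. Ifit3, which binds foreign RNA together with Ifit1, had 1513, 1720, 488 and 143 reads, high at 6 and 24 h and low at 48 and 72 h. Irf7, the factor that amplifies interferon production, had 201, 294, 105 and 46.8 CPM, highest at 24 h. Stat2, a subunit of the ISGF3 factor, had 276, 254, 162 and 77.1 CPM. Bst2 (tetherin), which holds budding viruses at the cell surface, had 495, 491, 170.4 and 153 CPM. Both were close at 6 and 24 h and lower at 48 and 72 h. The smallest differences were those of Ddx58 (-0.57) and Cxcl10 (-0.57). Ifit and Oas genes have close paralogs, so their levels are uncertain where reads were shared.

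Among the 13 genes of the MHC class I list that passed the filter, of 15 listed, 2 were 2-fold lower at 72 h, against 8.38% of all genes, namely H2-T23 and Tapbp with log2 differences of -2.17 and -1.62. H2-K2, a class I gene outside this list, was also lower, by a log2 difference of -2.59. The classical gene H2-K1 had 1497, 1745, 1329 and 1080.4 CPM and was highest at 24 h. H2-D1 had 883, 1154, 918 and 799.7 CPM, also highest at 24 h. The reads of MHC genes are shared among paralogs.

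Promoters of these lists are shown because many of their members differed together and motifs of known factors can be searched in them. In each list 9 motifs were searched, and those given are mainly motifs of factors known for the list. Some lists, such as the interferon-stimulated genes, hold known targets of such factors. The shares therefore describe the listed genes and not these libraries. They come from RefSeq on build GRCm38.p6, which is not the build of the counts (mm9), and cover the 250 bases before the start of the transcript, 5′ to 3′ on the gene's strand. For each list, the printed genes are those with the largest difference from 6 to 72 h whose bases hold the motif. Some promoters were left out of this choice beforehand. Searches ran over 300 bases, 250 before and 50 after the start, on both strands, in 32851 promoters. The interferon response core AAANNGAAA was found in 16 of 24 promoters of 21 matched interferon-stimulated genes (66.7%), against 10.6% of all promoters and 7.60% of those of the genes that passed the filter. Capitals mark it in Rsad2 (chr12:26456453-26456702, minus strand), Oas3 (chr5:120777660-120777909, minus strand), which encodes an oligoadenylate synthetase, and Ifit3 (chr19:34583279-34583528, plus strand).
Rsad2: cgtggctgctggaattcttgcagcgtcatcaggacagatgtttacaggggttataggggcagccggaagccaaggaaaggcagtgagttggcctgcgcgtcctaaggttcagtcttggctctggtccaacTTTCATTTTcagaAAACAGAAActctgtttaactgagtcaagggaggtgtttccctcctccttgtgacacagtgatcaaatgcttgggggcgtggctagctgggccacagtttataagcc
Oas3: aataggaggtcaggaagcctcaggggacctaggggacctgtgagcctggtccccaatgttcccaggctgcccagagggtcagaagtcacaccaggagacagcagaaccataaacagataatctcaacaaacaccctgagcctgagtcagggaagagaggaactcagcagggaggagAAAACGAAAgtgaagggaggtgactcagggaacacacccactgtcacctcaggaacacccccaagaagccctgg
Ifit3: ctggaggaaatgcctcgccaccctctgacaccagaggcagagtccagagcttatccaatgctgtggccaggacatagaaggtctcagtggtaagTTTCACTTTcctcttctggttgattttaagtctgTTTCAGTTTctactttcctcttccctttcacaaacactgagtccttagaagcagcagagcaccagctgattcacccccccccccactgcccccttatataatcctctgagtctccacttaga

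In the Rsad2 promoter the core starts 120 and 107 bases before the transcript start, and in Ifit3 156 and 122 bases before it. For the lysosome list, the E-box CACGTG, the centre of the element that TFEB binds, was found in 8 of 20 promoters (40.0%), against 7.15% of all promoters and 10.2% of those of filtered genes. It is in capitals in Gaa (chr11:119267713-119267962, plus strand), which encodes acid alpha-glucosidase, and Mcoln1 (chr8:3500269-3500518, plus strand).
Gaa: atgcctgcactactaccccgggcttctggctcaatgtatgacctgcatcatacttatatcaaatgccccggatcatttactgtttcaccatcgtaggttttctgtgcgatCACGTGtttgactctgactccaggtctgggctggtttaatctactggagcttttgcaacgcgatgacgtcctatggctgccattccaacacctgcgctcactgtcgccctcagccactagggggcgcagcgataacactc
Mcoln1: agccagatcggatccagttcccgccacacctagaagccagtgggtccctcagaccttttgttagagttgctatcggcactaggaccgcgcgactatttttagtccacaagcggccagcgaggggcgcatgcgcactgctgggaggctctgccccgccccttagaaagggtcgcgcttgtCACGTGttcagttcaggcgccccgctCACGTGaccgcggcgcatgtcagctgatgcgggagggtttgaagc

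The E-box stood in 4 of 23 promoters of the nucleolus list (17.4%) and in 4 of 19 of the cholesterol list (21.1%). In the cholesterol list, the CCAAT box, which NF-Y binds next to SREBP, was found in 15 of 19 promoters (78.9%). All promoters had 37.4%. This share was not particular to the cholesterol list. The box was in 15 of 16 promoters of the chaperones of the endoplasmic reticulum (93.8%) and 10 of 12 of MHC class I (83.3%). Other lists had lower shares, such as 6 of 23 for the nucleolus list (26.1%). The sterol element in the form TCACNCCAC was found in 0 of the 19 cholesterol promoters and in 1.24% of all promoters. This 0 says only that these letters are not in these windows. The CCAAT box, read on the other strand as ATTGG, is in capitals in Insig1 (chr5:28071162-28071411, plus strand) and Tm7sf2 (chr19:6067851-6068100, minus strand), a sterol reductase gene.
Insig1: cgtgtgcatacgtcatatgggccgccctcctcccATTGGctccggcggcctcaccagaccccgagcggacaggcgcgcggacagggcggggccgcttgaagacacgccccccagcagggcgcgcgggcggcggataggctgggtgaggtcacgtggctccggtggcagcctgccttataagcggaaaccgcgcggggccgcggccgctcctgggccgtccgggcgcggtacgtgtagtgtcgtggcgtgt
Tm7sf2: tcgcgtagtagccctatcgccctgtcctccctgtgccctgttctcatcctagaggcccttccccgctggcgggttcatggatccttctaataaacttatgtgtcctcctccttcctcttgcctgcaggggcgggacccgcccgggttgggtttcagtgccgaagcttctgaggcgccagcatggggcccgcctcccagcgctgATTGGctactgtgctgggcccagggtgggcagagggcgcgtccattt

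**Figure D3:**
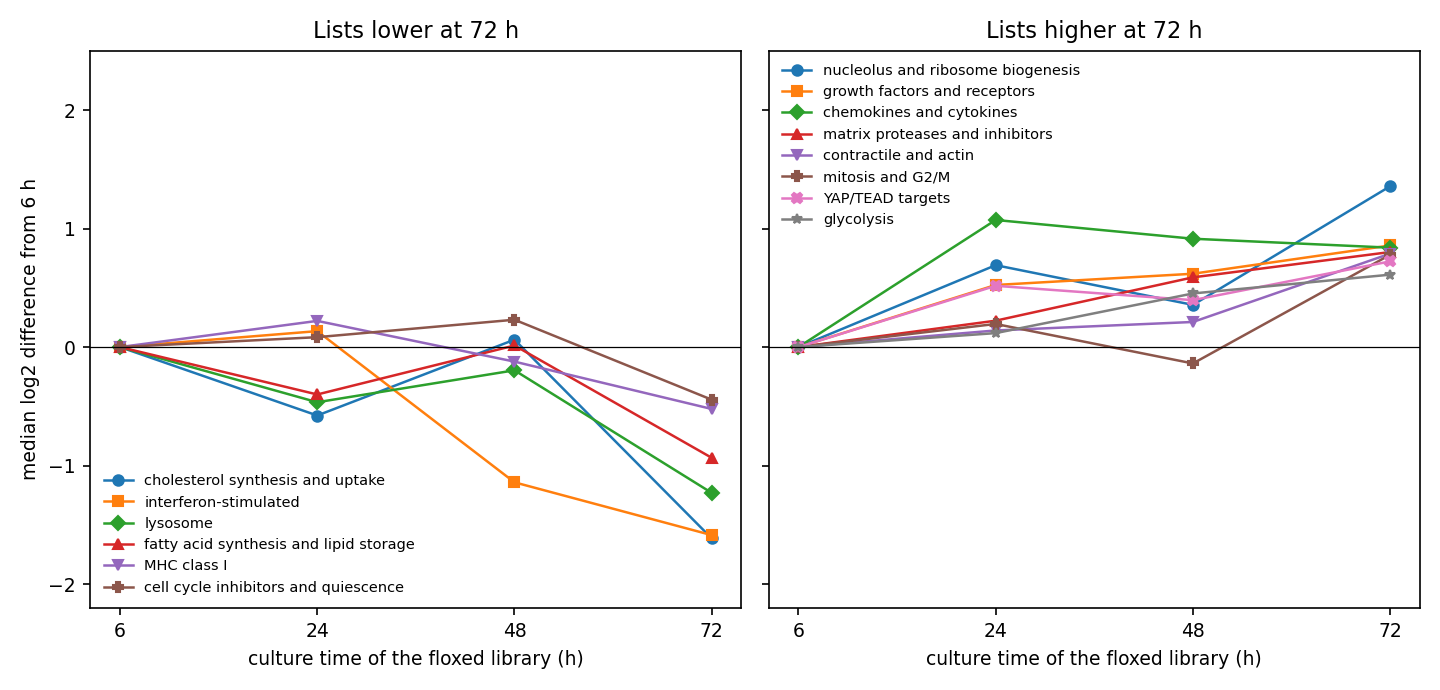
Median log2 difference from the 6 h library for gene lists that were lower (left) or higher (right) at 72 h in the iBmp2 fx/fx cells, with 1 line per list and 1 point per library. The cholesterol and lysosome lists stand at 0.06 and -0.20 at 48 h and at -1.61 and -1.23 at 72 h, while the interferon-stimulated list is at -1.14 by 48 h.

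Genes of mitosis were mostly highest at 72 h, and those of DNA replication were more often highest at 48 h. All 26 genes of mitosis and G2/M passed the filter, 25 of 26 had their highest level at 72 h, against 38.6% of all genes, and 6 of 26 were at least 2-fold higher than at 6 h, against 5.71%, with a median of 0.78. Mki67, the proliferation marker, had 401, 623, 527 and 861 CPM at 6, 24, 48 and 72 h. Cenpe, a kinesin of the kinetochore, had 130.3, 213, 141 and 339 CPM. The mitotic kinase gene Plk1 had 65.3, 77.2, 54.4 and 136 CPM. At 48 h, 21 of the 26 had their lowest level, against 18.3% of all genes. Of the 25 genes of DNA replication and G1/S, 22 were higher at 48 than at 6 h, 22 were higher at 48 than at 24 h, and 13 of 25 had their highest level there, against 17.1% of all genes. Their median from 6 to 72 h was 0.10, and 2 of 25 were 2-fold higher, close to the 5.71% of all genes. The first was Rrm2, a subunit of ribonucleotide reductase, with 170.4, 224, 238 and 378 CPM. The other was cyclin E2 (Ccne2) with 23.6, 35.6, 41.5 and 52.7 CPM, and both were higher at every later time. The helicase gene Mcm6 and the sliding clamp gene Pcna had log2 differences of -0.34 and -0.39.

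The cell cycle homology region TTTGAA, bound by the DREAM complex, was found in 17 of 23 promoters of the mitosis list (73.9%), against 17.9% of all promoters, and the CCAAT box in 21 of 23 (91.3%). Both are in capitals in the promoter of Mki67 (chr7:135716380-135716629, minus strand). Among the genes open to this choice whose 250 bases hold them, it had the largest difference.
Mki67: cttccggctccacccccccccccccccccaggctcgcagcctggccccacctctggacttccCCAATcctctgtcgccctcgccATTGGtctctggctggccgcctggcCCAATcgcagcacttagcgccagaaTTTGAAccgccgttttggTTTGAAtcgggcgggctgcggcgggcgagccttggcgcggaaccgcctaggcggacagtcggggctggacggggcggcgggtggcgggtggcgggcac

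Of 26 inhibitors, cyclins and genes of quiescence, 3 were 2-fold higher and 5 were 2-fold lower at 72 h, against 5.71% and 8.38% of all genes, and the other 18 stayed within 2-fold. Cyclin D1 (Ccnd1), which starts the passage through G1, had 40.9, 212, 109 and 228 CPM, low at 6 h and higher at 24 and 72 h than at 48 h. Cyclin D2 (Ccnd2) had 116, 238, 173 and 286 CPM. The inhibitor p27 (Cdkn1b) was lower at every later time, with 130.4, 99.5, 91.4 and 57.2 CPM. The inhibitor p57 (Cdkn1c) had 349, 163, 240 and 62 reads, lowest at 72 h. Ccng2 and Sepp1, which accumulate in resting cells, differed by -1.86 and -1.12. The p53 target Cdkn1a had 234, 391, 482 and 337 CPM and was highest at 48 h. Cdkn2a, which encodes p16 and p19Arf, had 416, 362, 511 and 289 CPM, also highest at 48 h. Of 27 replication-dependent histone genes 6 passed the filter and 4 of 6 were 2-fold higher at 72 h, against 5.71% of all genes, such as Hist1h2bc with 24.8, 22.5, 33.4 and 58.6 CPM, but histone genes share reads with near-identical copies.

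YAP and TEAD are the effectors of the Hippo pathway, and part of their target genes and of the genes of the contractile cytoskeleton were 2-fold higher at 72 h. Of 19 YAP/TEAD targets that passed the filter, 8 were 2-fold higher, against 5.71% of all genes, 0 of 19 were 2-fold lower, and 11 stayed within 2-fold, with a median of 0.72. Cyr61 (chr3:145309935-145312949, minus strand, mm9), a secreted matricellular protein, had 184, 378, 413 and 999 CPM at 6, 24, 48 and 72 h and was higher at every later time, by 2.44 from 6 to 72 h with a counting interval of 2.40 to 2.48. Ctgf, its relative, had 118, 164, 168 and 343 CPM, also in order. Ankrd1, a nuclear ankyrin repeat protein, had 1504, 3957, 2885 and 5938 reads. Amotl2, an angiomotin that binds YAP, had 158, 412, 283 and 386 CPM, and both were low at 6 h and lower at 48 than at 24 h. The receptor gene Axl differed by -0.03. The TEAD site GGAATG was found in 8 of 16 promoters of this list (50.0%), against 14.7% of all promoters. A similar share, 7 of 16 (43.8%), was found for the contractile and actin list below. It is in capitals in Cyr61 (chr3:145649986-145650235, minus strand), where it reads CATTCC on this strand, and in Ankrd1 (chr19:36119845-36120094, minus strand).
Cyr61: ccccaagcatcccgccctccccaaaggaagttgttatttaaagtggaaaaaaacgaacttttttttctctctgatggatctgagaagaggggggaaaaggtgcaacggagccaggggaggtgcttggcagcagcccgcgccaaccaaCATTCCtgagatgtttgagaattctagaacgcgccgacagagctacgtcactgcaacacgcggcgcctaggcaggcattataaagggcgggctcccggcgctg
Ankrd1: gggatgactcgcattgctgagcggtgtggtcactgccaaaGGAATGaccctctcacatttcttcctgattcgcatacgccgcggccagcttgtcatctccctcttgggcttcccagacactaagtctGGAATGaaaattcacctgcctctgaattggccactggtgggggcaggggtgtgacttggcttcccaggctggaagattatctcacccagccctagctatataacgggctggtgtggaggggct

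All 18 contractile and actin genes passed the filter, and 8 of 18 were 2-fold higher at 72 h, against 5.71% of all genes. Each of the 18 was above its 6 h level at 72 h, as were 6374 of all 12014 genes. Tagln (transgelin) had 118, 175, 169 and 459 CPM at 6, 24, 48 and 72 h. Acta2 (smooth muscle actin) had 429.6, 408, 414 and 915 CPM. Myl9, a regulatory light chain of myosin, had 65.8, 72.3, 70.4 and 189 CPM. In these genes the largest step was that from 48 to 72 h. Filamin A (Flna), which crosslinks actin, had 1347, 1694, 1882 and 2331 CPM. Beta-actin (Actb) had 1624, 1655, 1884 and 2615 CPM, and both were higher at every later time. Srf, the factor that binds CArG boxes in such genes, had 70.3, 67.8, 88.6 and 139 CPM. The CArG box was found in 4 of 16 promoters of the list, against 1.63% of all promoters, and is shown in capitals for Myl9 (chr2:156775214-156775463, plus strand).
Myl9: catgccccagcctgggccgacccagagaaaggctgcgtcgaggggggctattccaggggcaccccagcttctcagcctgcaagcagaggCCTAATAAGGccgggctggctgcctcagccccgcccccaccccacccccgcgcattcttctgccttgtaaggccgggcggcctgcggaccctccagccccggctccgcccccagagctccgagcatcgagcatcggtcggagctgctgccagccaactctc

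Secreted signals had higher list medians already at 24 h. Of 15 chemokine and cytokine genes that passed the filter, 7 were 2-fold higher, against 5.71% of all genes, and 0 of 15 lower at 72 h, and the median log2 difference was 1.07 at 24 h, 0.91 at 48 h and 0.84 at 72 h. Cxcl5, which attracts neutrophils, had 217, 878, 834 and 1184 CPM. Cxcl1, of the same kind, had 104, 304, 284 and 609.9 CPM. Csf1, the growth factor of macrophages, had 330.5, 757, 644 and 1169 CPM. All 3 were low at 6 h, close at 24 and 48 h and highest at 72 h. Il6 had 79, 257, 364 and 349 reads, with scaled levels at 48 and 72 h close to each other. Ptgs2, the inducible cyclooxygenase, had 92.9, 196, 196 and 298 CPM. Of 24 growth factor and receptor genes that passed, 10 were 2-fold higher and 1 was lower (Pdgfb, -1.52), against 5.71% and 8.38% of all genes. Ereg (epiregulin), a ligand of the EGF receptor, had 16.4, 57.7, 70.9 and 122 CPM and was higher at every later time. Inhba, which encodes the activin A chain, had 3.96, 17.1, 10.5 and 29.0 CPM. Hgf (hepatocyte growth factor) had 8.23, 44.8, 43.2 and 29.2 CPM with its highest level at 24 h. Fgf7 and Fgf10, ligands from mesenchyme to epithelium, differed by 1.51 and 1.69.

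Of the extracellular matrix, the collagens had a median of 0.03, with 3 of 18 genes 2-fold higher and 3 of 18 lower, against 5.71% and 8.38% of all genes. Col1a1 had 3565, 3441, 2906 and 3086 CPM. Col1a2 had 3393, 2838, 2757 and 2174 CPM and was lower at every later time, with a log2 difference of -0.64 in all. Col12a1, a collagen on the surface of fibrils, had 445, 941, 974 and 1167 CPM. Col6a3, a chain of the microfibrils, had 149.6, 231, 391 and 403 CPM, and both were higher at every later time. Col7a1, the anchoring fibril collagen, had 129.6, 76.3, 86.0 and 53.2 CPM, lowest at 72 h. Of 21 glycoproteins and proteoglycans, 3 were 2-fold higher and 1 was lower at 72 h, against 5.71% and 8.38% of all genes, with a median of 0.47. Vcan (versican, chr13:89794915-89882117, minus strand, mm9), a large hyaluronan-binding proteoglycan, had the largest difference of the list, with 96.7, 370.1, 406 and 705 CPM, higher at every later time by 2.86 in all. Fibronectin (Fn1) had 3462, 9534, 9925 and 6437 CPM, with its highest level at 48 h. Thbs1 (thrombospondin 1) had 280.4, 579, 940.1 and 688 CPM. Thbs2 had 414, 1086, 1191 and 823 CPM, and both were also highest at 48 h and lowest at 6 h.

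Of 19 genes of matrix proteases and inhibitors that passed the filter, 8 were 2-fold higher and 3 of 19 lower at 72 h, against 5.71% and 8.38% of all genes. The gelatinase gene Mmp2 had 602, 462, 488 and 193 CPM at 6, 24, 48 and 72 h. Mmp14, the membrane protease that activates it, had 696, 451, 589 and 242 CPM. Mmp11 had 209, 106, 159 and 33.9 CPM, and these 3 lower genes all had their lowest level at 72 h. The inhibitor Timp1 had 96.7, 199.8, 248 and 565 CPM. Timp3 had 239, 716, 526 and 592 CPM, and both were lowest at 6 h. Adam19 and Adam12, membrane-bound proteases, differed by 2.08 and 1.05.

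The glycolysis list had 5 of 20 genes 2-fold higher and 2 of 20 lower at 72 h, against 5.71% and 8.38% of all genes, with a median of 0.61. The lower share is near that of all genes. Lactate dehydrogenase A (Ldha) and the lactate exporter Slc16a3 were higher at every later time. Ldha had 314, 445, 689.6 and 836 CPM and Slc16a3 went from 120.0 CPM at 6 h to 311 CPM at 72 h. Pfkfb3, which makes the activator of phosphofructokinase, had 6.14, 13.7, 11.1 and 29.8 CPM. The lower genes Eno2 and Aldoc were at -1.17 and -2.19 on the log2 scale. Gapdh, Eno1, Pgk1 and Pgam1 have many pseudogene copies and their levels are uncertain. The hypoxia list had its highest levels at 48 h for 11 of 20 genes, against 17.1% of all genes, among them the pyruvate dehydrogenase kinase Pdk1 with 18.8, 40.9, 75.8 and 56.8 CPM and Bnip3 with 15.5, 24.3, 47.9 and 24.9 CPM, and at 72 h 4 of 20 were 2-fold higher and 1 (Ndrg1, -1.32) lower, against 5.71% and 8.38% of all genes.

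Stress programs differed in their times and directions. The ATF4 list of amino acid response genes had a median of 0.02, and its highest levels were at 24 h for 20 of 25 genes, against 14.3% of all genes, such as the cystine transporter Slc7a11 with 109, 314, 172 and 94.8 CPM and asparagine synthetase (Asns) with 211, 318, 203 and 229.7 CPM. From 6 to 72 h, 1 of 25 was 2-fold lower (Chac1, -1.36), below the share of all genes. Chaperones of the endoplasmic reticulum had 0 of 18 genes past 2-fold, with a highest level at 72 h for 14 of 18, against 38.6% of all genes (Hspa5, 1088, 1064, 964 and 1799 CPM). Among 15 heat shock and chaperonin genes, 3 were 2-fold lower, against 8.38% of all genes, namely Cryab, Hspb1 and Hspa1a at -1.85, -1.72 and -1.28, and the mitochondrial chaperonin Hspd1 was higher at 1.62. Of 17 Nrf2 targets 3 were 2-fold lower, against 8.38% of all genes, namely Gstm1, Gsta4 and Cat with -2.39, -2.50 and -1.13. The p53 list was highest at 48 h for 9 of 19 genes, against 17.1% of all genes, and at 72 h 3 of 19 were 2-fold higher, against 5.71%, namely Aen, Ccng1 and Zmat3 at 1.78, 1.23 and 1.00. Of 18 clock genes, 2 were 2-fold higher and 2 lower, close to the shares of all genes (5.71% and 8.38%). Per2, a repressor of the clock, had 11.9, 44.3, 33.9 and 67.3 CPM, whereas its activator Arntl differed by -0.16.

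Among 22 genes of BMP and TGF-beta feedback, 5 were 2-fold higher and 1 was 2-fold lower at 72 h, against 5.71% and 8.38% of all genes, and the median was 0.11. The inhibitors of DNA binding Id1, Id2 and Id3 differed by 0.58, 0.15 and -0.34, all within 2-fold. The BMP antagonist Grem1 had 267, 759, 889 and 635 CPM, with its highest level at 48 h, and the activin antagonist Fst had 18.4, 34.0, 55.3 and 72.0 CPM, higher at every later time. Tgfbi, a TGF-beta-induced matrix protein, was the lower gene of the list at -1.42. Of 13 Wnt genes, Sfrp2, a secreted Wnt antagonist, had 8.42, 45.0, 60.4 and 33.1 CPM. Notum, a Wnt deacylase, had 321, 259, 875 and 686 reads, and these 2 of 13 genes were 2-fold higher at 72 h, against 5.71% of all genes, with their highest level at 48 h. Axin2, the general feedback gene, had 37, 25, 42 and 39 reads. Of 10 Notch genes 3 were 2-fold lower, against 8.38% of all genes, namely Jag2, Nrarp and Hes6 with -1.81, -1.28 and -1.07. Of 14 integrin and cadherin genes, 3 were 2-fold higher and 4 lower, against 5.71% and 8.38% of all genes. Itgb3, an integrin chain that binds vitronectin, had 34.1, 15.2, 29.6 and 9.19 CPM. Itga3, a laminin receptor chain, had 102, 77.8, 66.3 and 46.2 CPM, and both were lowest at 72 h. The hyaluronan receptor Cd44 had 188, 275, 261 and 449 CPM, highest at 72 h. Of 27 immediate early genes 7 were 2-fold higher, against 5.71% of all genes, and 2 were lower, near the 8.38% of all genes. The AP-1 gene Fosl1, 1 of the higher genes, had 5.05, 15.9, 15.4 and 25.7 CPM. Its partner Jun had 61.0, 79.3, 104 and 134 CPM, whereas Fos had 13.8, 11.1, 17.0 and 12.8 CPM and was not ordered in time.

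Of the 125 genes higher at every later time, several of the 15 with the largest differences follow. Lce1g, a cornified envelope gene, had 4, 5, 31 and 115 reads and the largest fitted difference, but it rests on 4 reads at 6 h, with a counting interval of 3.56 to 6.86. Stc1 (stanniocalcin 1), a secreted regulator of calcium and phosphate, had 8, 84, 127 and 123 reads, and Dio3, which inactivates thyroid hormone, had 7, 61, 86 and 107. For Stc1 and Dio3 the largest step was that from 6 to 24 h. The log2 step of Stc1 from 48 to 72 h was only 0.07, with fewer reads at 72 h, and has no firm sign. Rgs16, a regulator of G protein signaling, had 79, 179, 247 and 878 reads, with the largest step from 48 to 72 h. The zinc transporter Slc30a1 had 78, 137, 320 and 660 reads. The metallothionein Mt2, like it induced by zinc, had 1136, 2343, 4042 and 6329 reads. Tnn (tenascin N), a matrix protein of bone and periodontal tissue, had 21, 27, 58 and 191 reads. Chi3l1, Cd80, Gm12603 and Sprr1a, with Ereg, Vcan and Timp1 above, were also among the 15, with log2 differences from 2.55 to 3.36. Chi3l1 and Cd80 had 223 and 529 reads at 48 h and 212 and 493 at 72 h. Their log2 steps from 48 to 72 h were only 0.05 and 0.02, too small for a firm sign.

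Among the genes lower at every later time, Klhl24 (chr16:20097627-20127817, plus strand, mm9), a substrate adaptor of a ubiquitin ligase, had 6965, 4722, 4834 and 819 reads, with the largest step from 48 to 72 h. Uba7, the enzyme that activates ISG15, had 1261, 1003, 586 and 180 reads. H2-K2, an MHC class I gene with shared reads, had 650, 270, 304 and 98 reads, and Trim34a, a further interferon-stimulated gene, 431, 320, 224 and 88. Rsad2 and Cmpk2, given above, were also among the 15 genes with the largest differences. The acetylcholine receptor subunit Chrnb1 had 402, 157, 107 and 55 reads, peripherin (Prph), a neuronal intermediate filament, 247, 59, 64 and 36, and Hap1 2189, 1237, 844 and 443. The tight junction gene Cgn had 503, 213, 189 and 93 reads and clusterin (Clu) 168, 80, 72 and 27. Zmynd10, Nup210, Mef2b and Chkb were lower in order from 182, 113, 152 and 102 reads at 6 h to 23, 14, 26 and 19 at 72 h.

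**Figure D4:**
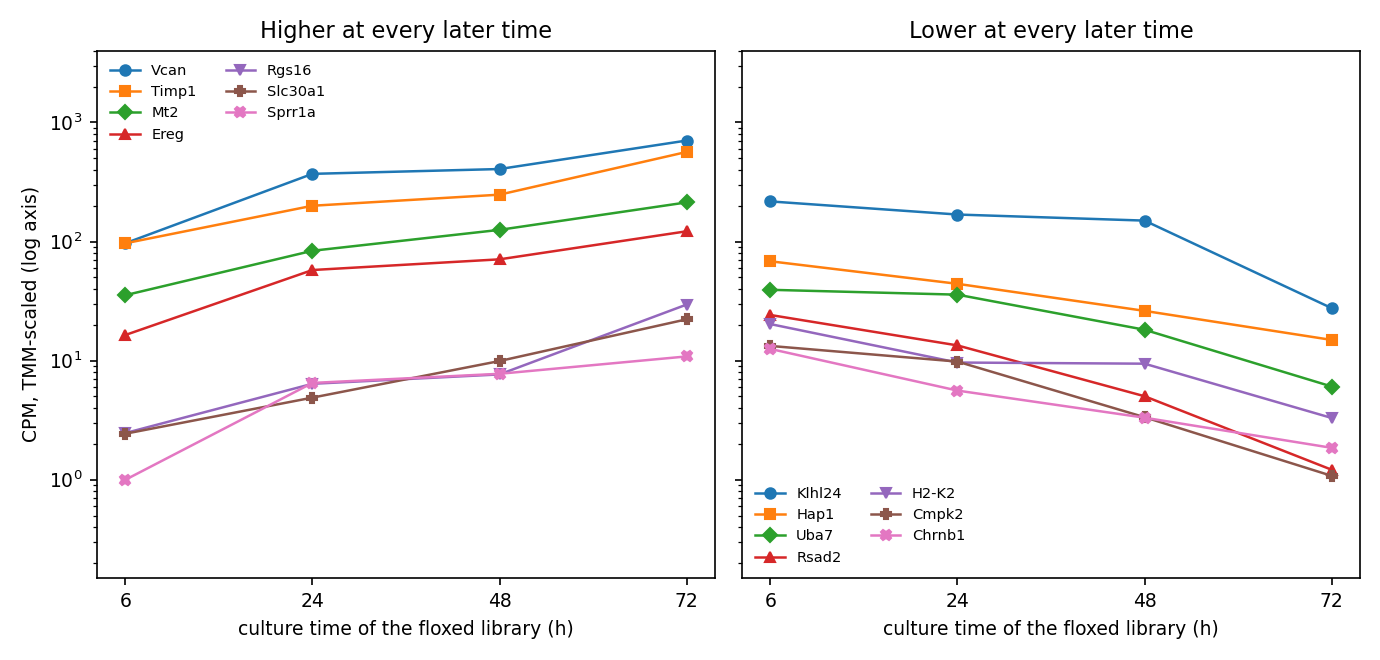
Level of genes that were higher (left) or lower (right) at every later time in the iBmp2 fx/fx cells, in TMM-scaled CPM on a log axis, with 1 point per library. Timp1 goes from 96.7 CPM at 6 h to 248 CPM at 48 h and 565 CPM at 72 h, while Rsad2 goes from 24.2 to 1.21 CPM.

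Some genes had their extreme at a middle time. At 24 h, 45 genes were 2-fold above both 6 and 72 h and 10 were 2-fold below both. The largest of the first kind were Sspo (29, 198, 71 and 26 reads) and the complement gene C4b, with 1391, 7750, 5816 and 1479 reads, high at 24 and 48 h and low at 6 and 72 h. Odz4 followed with 355, 1806, 734 and 369 reads and Mamdc2 with 22, 125, 47 and 29. Rmrp had 69, 246, 54 and 46 reads, and this gene was also among the 11 that set the library labelled iBmp2 ko/ko at 24 h apart from that of iBmp2 fx/fx at 6 h. Low at 24 h were Insc with 113, 11, 30 and 50 reads, the Notch effector Hey1 with 760, 176, 958 and 519, Asb2 with 127, 39, 96 and 111, skeletal actin (Acta1) with 435, 136, 196 and 357 and Wnt2 with 81, 32, 121 and 201. At 48 h, 46 genes were 2-fold above both 6 and 72 h and 0 genes were 2-fold below both. The largest were Sparcl1 with 25, 18, 188 and 35 reads, Rerg with 22, 51, 110 and 13, the placental hormone gene Prl2c2 with 36, 185, 350 and 72, C4b, and Rspo2, which strengthens Wnt signals, with 34, 62, 127 and 15. Across all 12014 genes, 38.6% had their highest level at 72 h and 29.9% at 6 h, against 14.3% at 24 h and 17.1% at 48 h.

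The iBmp2 ko/ko line covered the same span. From 6 to 72 h, 1143 of the 12014 genes (9.51%) were 2-fold higher and 1490 (12.4%) lower there. Of the 686 genes higher in the iBmp2 fx/fx cells, 538 were also 2-fold higher in the iBmp2 ko/ko cells, which is 78.4% of the first list and 47.1% of the second. Of the 1007 lower genes, 803 were shared, 79.7% and 53.9% of the lists. The sign was the same for 669 of 686 (97.5%) and 989 of 1007 (98.2%), and 8 genes were past 2-fold in opposite directions. These were Fmod, Islr, Prelp, Rgs2, Sema3c and Stra6, 2-fold higher at 72 than at 6 h in the floxed line and 2-fold lower in the other, and Greb1 and Selp, the reverse. They were chosen after their values were seen. Prelp, a small leucine-rich proteoglycan, had 552, 1997, 3740 and 1127 reads in the iBmp2 fx/fx cells, a log2 difference of 1.14, and differed by -2.01 in the iBmp2 ko/ko cells.

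The list medians stood side by side in both lines. For the iBmp2 ko/ko cells the median log2 difference from 6 to 72 h was 1.70 for the nucleolus list, with 22 of 25 genes 2-fold higher (9.51% of all genes), -1.69 for cholesterol synthesis, with 18 of 24 lower, -1.05 for the lysosome and -1.27 for the interferon-stimulated genes, with 13 of 23 and 18 of 30 lower (12.4% of all genes). For mitosis and G2/M it was 0.80. The cholesterol list was near its 6 h level at 48 h in this line too (0.13). The interferon-stimulated list was not lower at 48 h there (0.03), against -1.14 in the iBmp2 fx/fx cells, and this difference between single libraries was not tested. The BMP and TGF-beta feedback list had 13 of 22 genes 2-fold higher (9.51% of all genes) and a median of 1.28 in the iBmp2 ko/ko cells. In the iBmp2 fx/fx cells it had 5 of 22 (5.71% of all genes) and 0.11. Id1 differed by 2.29 in the iBmp2 ko/ko cells and by 0.58 in the iBmp2 fx/fx cells. The difference between the 2 list medians, again from single libraries, was not tested.

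**Figure D5:**
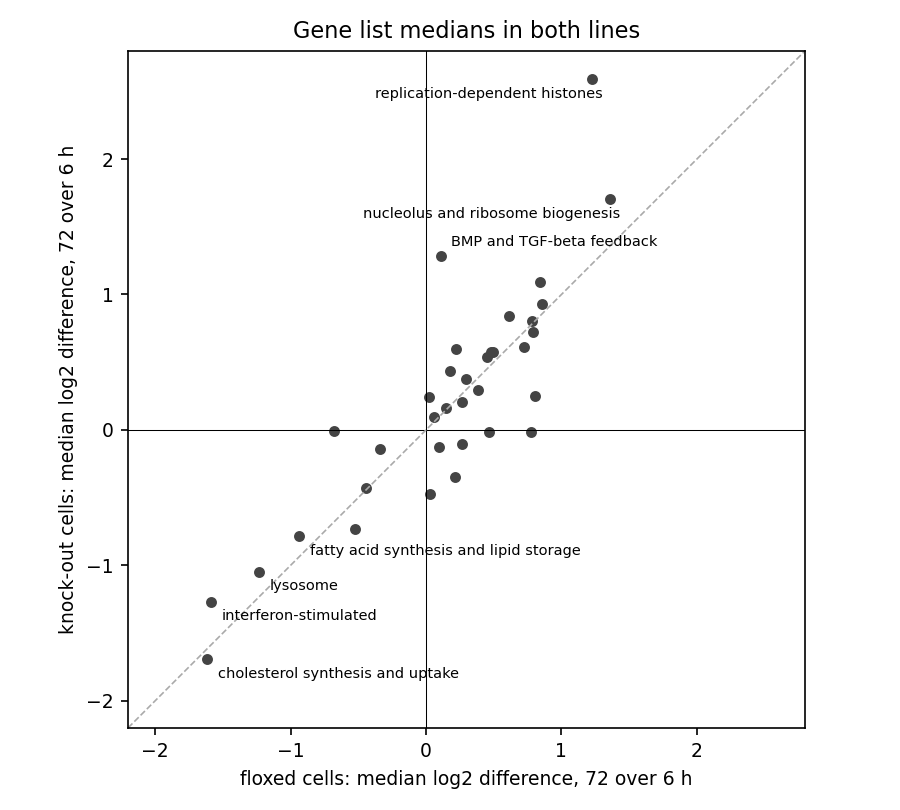
Median log2 difference from 6 to 72 h of each gene list with at least 5 genes past the filter, in the iBmp2 fx/fx (x axis) and iBmp2 ko/ko cells (y axis), with 1 point per list and a dashed line where both are equal. The cholesterol list lies at -1.61 and -1.69 and the nucleolus list at 1.36 and 1.70.

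Whether a gene's trend differed between the lines was tested over all 8 libraries with edgeR's quasi-likelihood test for the product of genotype and log2 of time, in which the scatter of the libraries about straight lines served as the error. With Benjamini-Hochberg adjustment and a limit of 0.05, 0 of 13053 genes (0%) were called, and 69 had an unadjusted p under 0.05. DESeq2 and limma also called 0 genes, with 87 and 76 at the unadjusted limit, and edgeR without both libraries of 24 h called 0, with 63. The fit and the slopes below include the library labelled iBmp2 ko/ko at 24 h, which was nearly identical to that of iBmp2 fx/fx at 6 h, and without this library alone edgeR called 0 genes, with 133 at the unadjusted limit. Leaving out the iBmp2 ko/ko library of 6 h or of 72 h raised the unadjusted count to 1060 and 455, still with 0 genes called, and the smallest adjusted p of edgeR was 0.0741 and 0.935. The gene with the smallest p in edgeR was Ddi2, and among the 10 smallest were Msln, Wt1, Rgs2 and Fmod. For Wt1 the slope per doubling of time was 0.15 for iBmp2 fx/fx against 1.21 for iBmp2 ko/ko, which differ by 1.06 ± 0.33 (SE) (edgeR, adjusted p = 1). Msln (mesothelin) had slopes of -1.02 and -0.13. The test rests on 4 residual degrees of freedom and on lines through times at which 24 and 48 h did not fall in order, so a count of 0 does not show that the trends were alike.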

How the data were processed

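RNA sequencing counts were analysed for the 4 iBmp2 fx/fx libraries (6, 24, 48 and 72 h) with the 4 iBmp2 ko/ko libraries beside them, grouped by the genotype and time in the labels. The authors deposited raw read counts per gene, which per the submitters' processing notes came from CASAVA 1.8.2, TopHat2 2.0.8b and HTSeq on build mm9. The gene annotation and the strand setting of the counting are not given in the sources used here, so a gene and an overlapping antisense gene cannot be told apart. The labels describe single reads of 50 bases, whereas the methods describe paired reads. The 5 counters at the end of each table were dropped, and among uniquely aligned reads of the iBmp2 fx/fx libraries 15.5% to 18.0% lay on no gene. The tables of long non-coding RNA were not used here.

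From these counts, edgeR 4.0.16 in R 4.3.3 gave TMM factors (0.948 to 1.03 for iBmp2 fx/fx) over the 8 libraries and log2 CPM with a prior count of 2. Genes with a mean of at least 1 CPM over the iBmp2 fx/fx libraries were kept, and a gene was counted as higher or lower at a difference of at least 2-fold. Intervals are exact Clopper-Pearson 95% intervals on the read counts. They cover counting error only, since PCR reads are not independent molecules, and with 1 library per time they hold no spread between cultures. RPKM used the exon lengths of GENCODE M1 on mm9, to which 95.7% of symbols matched. The product of genotype and log2 of time was tested with edgeR's quasi-likelihood test and Benjamini-Hochberg adjustment, with DESeq2 1.42.0 and limma 3.58.1 as alternatives. These scripts were tested on simulated data. Promoters came from RefSeq.

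The members, the gene lists and the tests were chosen with earlier results of these data known. Named genes were 2 to 5 of each list, the 15 with the largest difference in each direction among genes in order at every time with at least 100 reads at the higher of 6 and 72 h, the 5 with the largest peak or trough at 24 and 48 h, the 15 of highest RPKM and the 10 of smallest p. Further members of the lists were named after their values were seen. Alternatives were another scaling, filter, prior count or pair of times, the counting interval, GC classes, a time block and leaving out each library in turn. The values of a few genes are not reported here.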

Additional observations from a re-analysis of the deposited data

How the results depend on the processing

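With 1 library per time, no count within the iBmp2 fx/fx cells has an error from replicate cultures. Of the median differences of 38 lists, 38 kept their sign with a prior count of 0.5, 36 with DESeq2 size factors, 32 without TMM and 25 when 48 h took the place of 72 h. Levels under 3 reads were not read as differences. Without a filter on low counts, 1058 genes were 2-fold higher and 1632 lower at 72 h, with 212 and 282 in order at every time. With a mean of at least 10 CPM, 562 were lower, and 74 and 76 were in order. Where the counting interval had to lie past 2-fold, 663 were lower and 91 of the lower genes were in order. With 48 h in place of 72 h, 347 were higher and 127 lower, and the median log2 difference of the cholesterol list was 0.062 in place of -1.61. With 24 h in place of 72 h, 359 were higher and 253 lower. From 48 to 72 h, 249 were higher, and between the means of the early and the late pair of libraries 119 were higher and 168 lower. In the order 6, 48 and 72 h, 561 and 826 genes were in order, and in 6, 48, 24 and 72 h, 383 and 574. This last order, the step from 48 to 72 h and the GC classes were chosen after seeing the data, and the cause of these differences was not tested. The genotype by time count was 0 in edgeR with each library left out in turn (0 to 0 genes) and with culture time as a replicate block, which pairs the lines by time (0 genes, 221 at an unadjusted p under 0.05).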
